A study of Mus musculus with 14 samples.

Results

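The Hox genes of the 4 mouse clusters were followed through bulk RNA-Seq of the esophagus. Members were all genes whose symbol is Hox, a cluster letter from a to d and a number, which gave 39 of the 55291 gene symbols in the count tables. Antisense and numbered noncoding genes of the clusters were left out of the members. The study collected 14 samples from 9 wild-type C57BL/6 mice, with no transgene or treatment, and RNA was enriched with oligo(dT) beads. Aged mice (≥18 months) gave 5 samples of epithelium and 3 of stroma, and young mice (≤4 months) gave 4 of epithelium and 2 of stroma. The epithelium is the mucosal sheet left when the muscle layers are peeled away. Both layers came from the 5 mice O1, O2, O3, Y1 and Y3, while OF5, OM8, YF5 and YM4 gave epithelium only, and each sample is 1 layer of 1 mouse.

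Hox proteins are transcription factors that bind DNA through a homeodomain, and in the embryo they give cells their position along the head-to-tail axis. Genes at the 3′ end of a cluster have low paralogue numbers and are used towards the head, while genes at the 5′ end have high numbers and are used towards the tail. Genes with the same number in different clusters are paralogues, and many adult tissues keep part of their embryonic Hox pattern.

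On the GRCm38 assembly the Hoxa cluster held 11 members at chr6:52155590-52260880 on the minus strand. The plus strand held the 10 Hoxb members at chr11:96194316-96368256, the 9 Hoxc members at chr15:102921103-103036852 and the 9 Hoxd members at chr2:74668310-74765142. The homeobox, the 180 bases that encode the homeodomain, was found within a single exon in all 39 members. It is shown for paralogue group 8, because Hoxc8 and Hoxd8 had opposite levels in the layers and Hoxb8 was low in both. The sequences are from GENCODE M21 on GRCm38, all on the plus strand, at chr15:102992571-102992750 (Hoxc8), chr2:74706525-74706704 (Hoxd8) and chr11:96284174-96284353 (Hoxb8). Capitals mark bases that differ from Hoxc8, 48 in Hoxd8 and 36 in Hoxb8.
Hoxc8: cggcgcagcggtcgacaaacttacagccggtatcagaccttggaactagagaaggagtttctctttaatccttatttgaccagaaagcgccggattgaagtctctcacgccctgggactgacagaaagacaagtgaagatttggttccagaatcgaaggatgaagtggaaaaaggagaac
Hoxd8: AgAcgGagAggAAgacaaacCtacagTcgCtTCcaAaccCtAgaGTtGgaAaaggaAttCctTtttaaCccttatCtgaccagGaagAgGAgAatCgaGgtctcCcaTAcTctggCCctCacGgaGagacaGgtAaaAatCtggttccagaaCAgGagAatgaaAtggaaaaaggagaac
Hoxb8: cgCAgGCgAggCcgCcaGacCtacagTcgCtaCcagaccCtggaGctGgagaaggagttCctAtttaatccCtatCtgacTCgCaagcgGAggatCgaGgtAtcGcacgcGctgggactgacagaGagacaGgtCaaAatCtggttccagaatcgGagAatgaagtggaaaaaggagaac
Hoxc8 and Hoxd8 were thus identical at 73.3% of the homeobox bases. Over whole transcripts, the longest run of bases that Hoxc8 or Hoxd8 shared with any other Hox transcript was 26 and 32 bases, both with Hoxb8.

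Total counts were 8217516 to 21867101 per sample. In the 4 mice that gave epithelium only, counts in protein-coding genes were 1042394 to 1433857, against 7971284 to 11067320 in the other epithelial samples. A floor of 3 counts corresponded to 0.707 to 1.25 normalized counts in these 4 samples and to 0.0872 to 0.175 in the other 10. Normalized counts are edgeR's CPM on the TMM-adjusted library size, and they were divided by exon length in kb wherever genes are compared with each other. Keratinocyte markers were higher in epithelium for 7 of 7 genes, and skeletal muscle markers were higher in stroma for 8 of 8. Endothelial and Schwann cell markers were higher in stroma for 4 of 4 each, and macrophage markers for 3 of 4. Only 2 of 6 smooth muscle and 3 of 6 fibroblast markers were higher in stroma, and the others did not differ. Epithelial means of these 2 lists were 48.7% to 121% and 47.6% to 86.8% of the stromal means, so the epithelial samples also held such transcripts. As a background, 1105 olfactory receptor genes had a 95th percentile of 0 to 0.128 normalized counts per kb in epithelial samples and 0.187 to 0.584 in stromal samples. Above this level lay 10 to 22 Hox genes per epithelial sample and 9 to 16 per stromal sample.

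**Figure D1:**
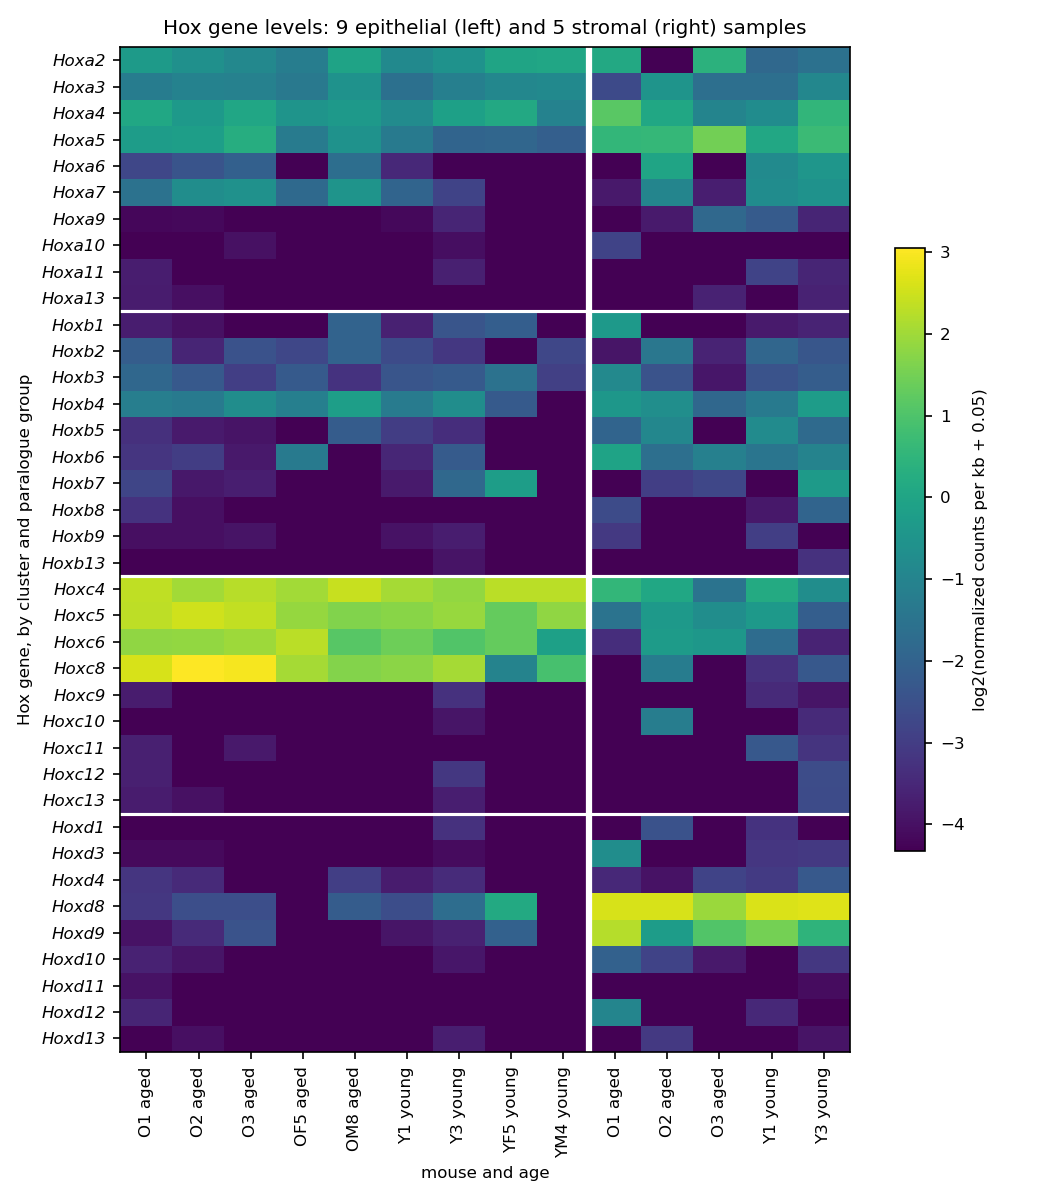
Level of 38 Hox genes (rows, by cluster and paralogue group) in 9 epithelial and 5 stromal samples (columns, by mouse and age), as log2 of normalized counts per kb plus a pseudocount of 0.05. Hoxc4 to Hoxc8 stand out in the epithelial columns and Hoxd8 and Hoxd9 in the stromal columns.

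Which paralogue groups each layer used was read over the 5 mice with both layers. A gene was called expressed with at least 10 counts in every library of the layer, and detected with at least 3 counts in at least 3 of the 5. By these classes, epithelium had 9 expressed, 9 detected and 21 not detected members, and stroma had 9, 13 and 17. Both layers expressed Hoxa3, Hoxa4, Hoxa5, Hoxb4, Hoxc4 and Hoxc5. Hoxa2, Hoxc6 and Hoxc8 were expressed in epithelium and detected in stroma, while Hoxb6, Hoxd8 and Hoxd9 were expressed only in stroma by this definition. Neither layer reached the detected class for 16 members.

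By position, paralogue groups 2 to 8 each had a detected or expressed member in both layers. In group 9 no member was detected in epithelium, whereas in stroma Hoxd9 was expressed and Hoxa9 detected. None of the 12 members of groups 10 to 13 was expressed in either layer, and Hoxd10 in stroma, with 14 counts over 5 samples, was the only one detected. In each of the 5 stromal samples Hoxd10 lay below the 95th percentile of the olfactory receptor genes. Stromal Hoxa9 had a median of 0.0353 and a highest value of 0.233 normalized counts per kb, where this percentile was 0.187 to 0.584. The classes rest on counts and do not use this background. Even of the members expressed in stroma, the lowest values of Hoxa3 (0.107) and Hoxc5 (0.179) lay under it. The highest group with an expressed member was thus 8 in epithelium and 9 in stroma.

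The level along each cluster is shown in the plot of levels by paralogue group. In epithelium, the members with the highest mean per kb were Hoxc4 (4.50 ± 0.58, SD, n = 9), Hoxc8 (4.33 ± 2.58), Hoxc5 (3.96 ± 1.08) and Hoxc6 (2.88 ± 1.19). The gaps between these neighbours in the order were smaller than the larger of their SDs. Next came Hoxa4 at 0.777 ± 0.215, the first below the 4 Hoxc genes. These ranks use all annotated exons. With the longest coding transcript in their place, Hoxc8 (6.56) came before Hoxc4 (5.45), Hoxc6 (4.38) before Hoxc5 (4.18), and Hoxa3 (1.002) before Hoxa4. In stroma, the order began with Hoxd8 (5.68 ± 1.06, n = 5), Hoxd9 (2.32 ± 1.504), Hoxa5 (1.65 ± 0.66) and Hoxa4 (1.12 ± 0.71). Hoxd9, Hoxa5 and Hoxa4 differed from their neighbour in this order by less than the larger SD, and Hoxd8 did not.

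**Figure D2:**
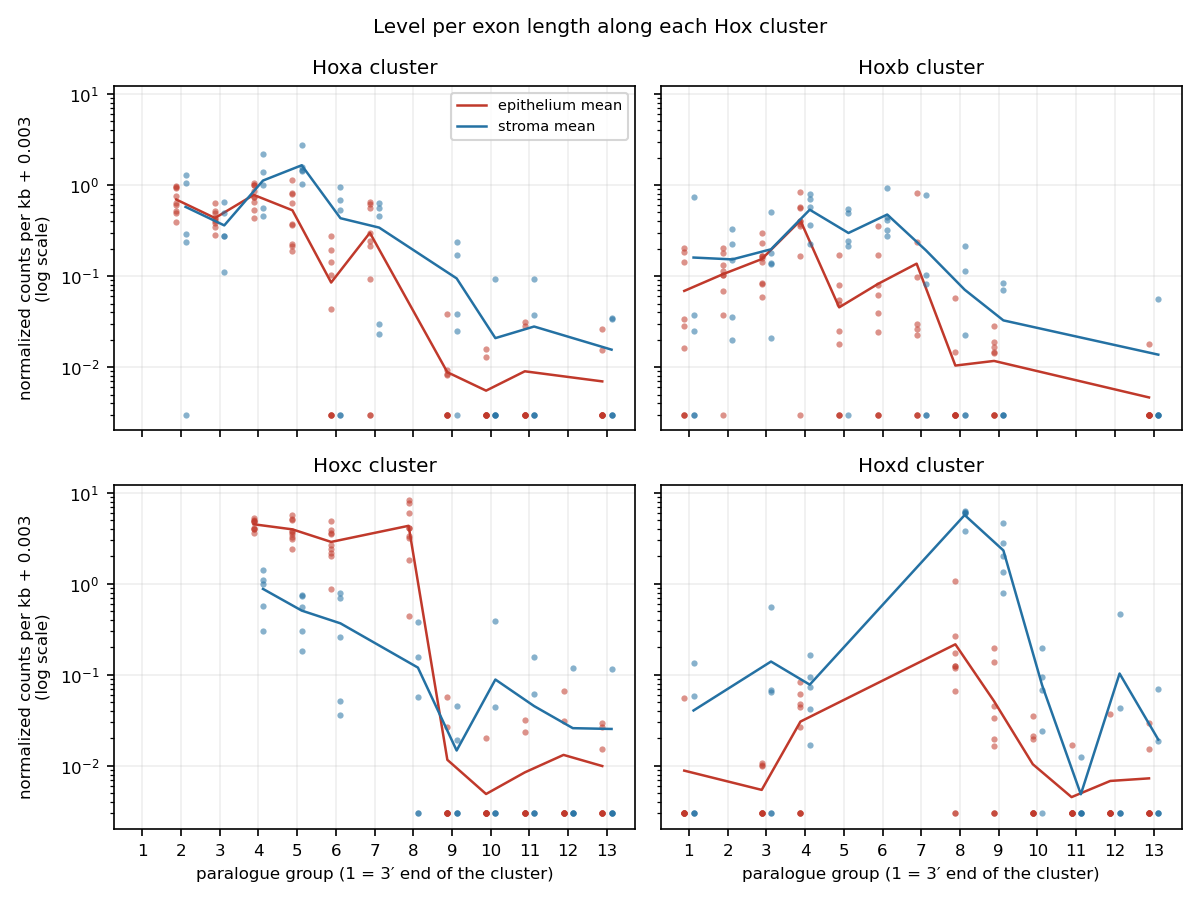
Normalized counts per kb plus 0.003 (log axis) against paralogue group, 1 panel per cluster and 38 genes in all, with 1 point per sample and lines through the means of 9 epithelial (red) and 5 stromal (blue) samples. Between Hoxc8 and Hoxc9 the epithelial mean falls from 4.33 to 0.00864, and between Hoxd9 and Hoxd10 the stromal mean falls from 2.32 to 0.0739.

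Both highest stretches ended with a steep fall on their 5′ side. In epithelium Hoxc8 had 2596 counts over the 9 samples and Hoxc9, whose gene ends 5507 bp away, had 6, a ratio of 501 per kb. In stroma Hoxd9 had 513 counts and Hoxd10, 2621 bp away, had 14, a ratio of 31.4 per kb. Within paralogue group 8 the layers also differed in which cluster was used: the ratio of Hoxc8 to Hoxd8 per kb was 20.3 in epithelium and 0.0206 in stroma.

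The summed level of all Hox genes overlapped between layers, at 13.3 to 26.7 normalized counts per kb in epithelial and 13.4 to 21.9 in stromal samples, while the shares of the Hoxa, Hoxc and Hoxd members did not. Hoxc4, Hoxc5, Hoxc6 and Hoxc8 together took 65.3% to 84.1% of the sum in epithelial samples and 5.33% to 17.2% in stromal samples. Hoxd8 and Hoxd9 took 0% to 8.09% in epithelium and 40.6% to 52.6% in stroma. The shares of Hoxa members were 10.8% to 21.6% in epithelium and 22.4% to 38.3% in stroma. The shares of Hoxb members overlapped, at 1.36% to 9.29% in epithelium and 5.85% to 16.4% in stroma.

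Epithelium was compared with stroma in all 14 samples, a comparison the study made with its own method. In bulk samples, fewer cells of a type and less RNA per cell cannot be told apart. Of the 39 members, 15 passed the filter on low counts, and 8 of these differed between layers (edgeR quasi-likelihood test, Benjamini-Hochberg adjusted over 16791 genes). Higher in epithelium were 4 members, all Hoxc genes, where 26.1% of all genes tested were higher in epithelium. Higher in stroma were 4 others, Hoxd8, Hoxd9, Hoxb6 and Hoxa5, where 30.1% of all genes tested were higher in stroma. These shares among the members, 4 of 15 in each direction, are near the background and are no result about the members. Samples of the 2 layers did not overlap for all 4 Hoxc genes (14.4% of all genes tested did so with epithelium higher) and for Hoxd8 and Hoxd9 (16.9% with stroma higher). The median log2 fold change was -0.34 over the 15 members and -0.05 over all genes tested.

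Hoxc8 (chr15:102990607-102994111), which patterns thoracic vertebrae and brachial motor neurons in the embryo, had the largest epithelial excess among members. Its normalized counts were 1.25 at the lowest, 11.5 at the median and 23.4 at the highest of the 9 epithelial samples. In stroma they were 0 in O1 and O3, 0.155 in Y1, 0.433 in Y3 and 1.07 in O2. The lowest epithelial sample, YF5, rested on 3 counts and lay just above the highest stromal sample. The difference was 5.18 ± 0.80 (log2 fold change ± SE, adjusted p = 4.15e-05).

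Hoxc5 (chr15:102967443-103017429) ranged from 7.501 through a median of 11.4 to 17.6 normalized counts in epithelium. In stroma it was 0.933 in O1, 2.26 in O2, 1.72 in O3, 2.32 in Y1 and 0.552 in Y3, so every epithelial value was above every stromal value. The difference was 2.99 ± 0.33 on the log2 scale (adjusted p = 1.74e-07). Of its exon bases, 5.37% also belong to Hoxc10, which had 18 counts in the stroma of O2.

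Hoxc6 (chr15:102998257-103011881), a gene of the thoracic region, spanned 2.08 to 11.7 normalized counts in epithelium with a median of 6.34. Its stromal values were 0.117 in O1, 1.89 in O2, 1.68 in O3, 0.619 in Y1 and 0.0788 in Y3, which split into 2 samples near the lowest epithelial value and 3 well below it. The log2 fold change was 2.96 ± 0.58 (adjusted p = 0.000233). The 2 samples with more Hoxc6, O2 and O3, were also those with the highest summed keratinocyte markers in stroma, 447 and 246.5 normalized counts against 45.8 to 74.0 in the other 3. The other Hoxc genes had other orders in stroma. Hoxc4 was highest in O1 and lowest in O3, and Hoxc5 was highest in Y1. Hoxc8 was highest in O2 and lowest in O1 and O3. The part of carried-over epithelium in the stromal Hoxc6 values was not tested.

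Hoxc4 (chr15:103018934-103036852), which in B cells activates the gene for the enzyme of antibody class switching, was the steadiest member in epithelium. Its 9 values ran from 9.16 through a median of 12.2 to 13.7 normalized counts. In stroma it was 3.68 in O1, 2.55 in O2, 0.765 in O3, 2.79 in Y1 and 1.46 in Y3. The layers did not overlap, with a log2 fold change of 2.37 ± 0.30 (adjusted p = 1.02e-06).

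**Figure D3:**
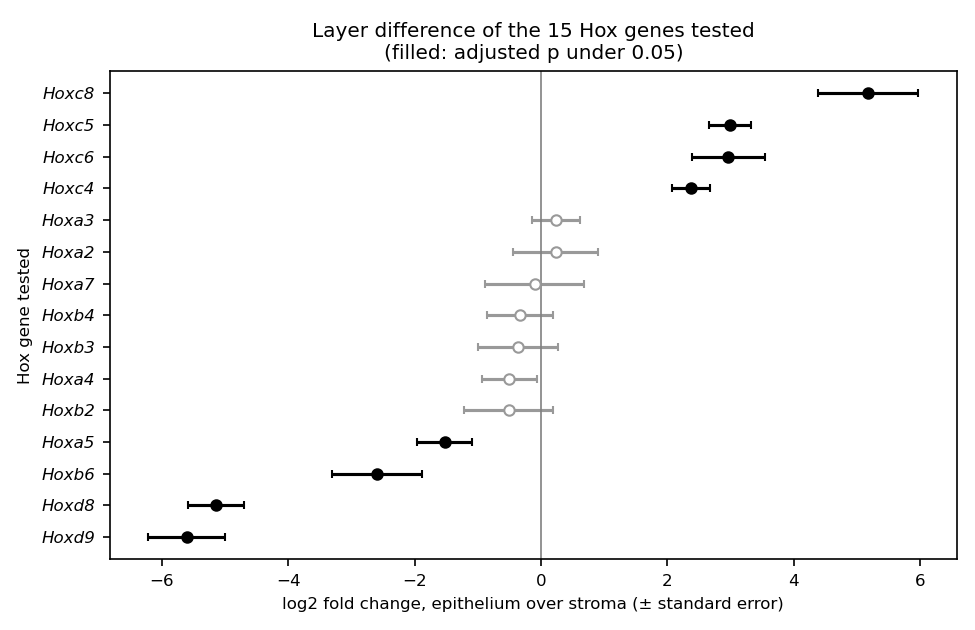
Log2 fold change of epithelium over stroma with its standard error for the 15 Hox genes that passed the filter, with filled points for an adjusted p under 0.05. The 4 filled points on the right are Hoxc genes, from 2.37 to 5.18, and the 4 on the left run from -1.53 (Hoxa5) to -5.61 (Hoxd9).

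Hoxd8 (chr2:74704615-74707933) had the highest stromal mean per kb among the members. It had 16.6 normalized counts in O1 and in O2, 10.4 in O3, 16.9 in Y1 and 17.5 in Y3. In epithelium it ran from 0 (OF5 and YM4) through a median of 0.331 to 2.92 in YF5, well below every stromal sample. The log2 fold change was -5.14 ± 0.45 (adjusted p = 5.37e-09). YF5 was also the epithelial sample with the highest summed skeletal muscle markers, 1489 normalized counts against 8.96 to 867 in the other 8, and whether its Hoxd8 came with muscle was not tested.

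Hoxd9 (chr2:74697727-74700208), which with other group 9 genes takes part in forelimb positioning, had 0.789 to 4.64 normalized counts per kb in stroma, against 3.81 to 6.37 for Hoxd8. In stroma it had 9.92 normalized counts in O1, 1.68 in O2, 4.28 in O3, 6.04 in Y1 and 2.88 in Y3. Epithelial samples had 0 to 0.417 with a median of 0.0354, so the layers did not overlap. The log2 fold change was -5.61 ± 0.61 (adjusted p = 1.46e-07).

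Hoxb6 (chr11:96292476-96301569) had 1.81 normalized counts in O1, 0.534 in O2, 0.803 in O3, 0.619 in Y1 and 0.867 in Y3 stroma. In epithelium it was at 0 in OM8, YF5 and YM4 and reached 0.689 in OF5 on 2 counts, so the layers overlapped. The log2 fold change was -2.60 ± 0.71 (adjusted p = 0.00381). Hoxa5 (chr6:52201754-52204587), needed for lung and trachea formation, had 2.68, 2.71, 5.20, 1.91 and 2.95 normalized counts in the stroma of O1, O2, O3, Y1 and Y3. In epithelium it ran from 0.346 through 0.689 to 2.15, and only the highest sample, O3, passed the lowest stromal value. Hoxa5 differed by -1.53 ± 0.44 on the log2 scale (adjusted p = 0.00580), the smallest change among the 8.

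The other 7 members tested, Hoxa2, Hoxa3, Hoxa4, Hoxa7, Hoxb2, Hoxb3 and Hoxb4, had log2 fold changes from -0.51 to 0.24 and adjusted p-values from 0.344 to 0.923. They belong to the Hoxa and Hoxb clusters, and their SEs were 0.38 to 0.78. Hoxa3, needed for the thymus and parathyroid, was at 2.60 ± 0.61 normalized counts in epithelium and 2.15 ± 1.27 in stroma. Hoxb4, known for expanding blood stem cells, was at 1.04 ± 0.61 and 1.37 ± 0.61. Exons of other annotated genes cover 15% of Hoxa2, 16% of Hoxa4, 20.4% of Hoxa7, 27.1% of Hoxa3, 27.3% of Hoxb2 and 52.9% of Hoxb3, so these values are uncertain. The overlap of Hoxa2 and part of that of Hoxa3 is with Gm28308 on the same strand. The rest lies on the other strand, and the strand setting of the counting is not given in the sources used here. No exon of Hoxc4, Hoxc6, Hoxc8, Hoxd8, Hoxd9, Hoxa5 or Hoxb6 overlaps another gene.

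The remaining 24 members did not pass the filter, and some had high counts in 1 stromal sample. In O1, Hoxd3 had 40 counts, Hoxb1 29 and Hoxd12 20. In O3, Hoxa9 had 34 counts, and in O2 Hoxc10 had 18. In the other stromal samples Hoxb1, Hoxd12 and Hoxc10 had at most 2 counts each, Hoxd3 at most 7 and Hoxa9 at most 18. Among the mice with both layers, stromal libraries also varied more among themselves over all genes. Their biological coefficient of variation was 0.63, against 0.198 in the epithelium of the same mice.

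Set beside cell type markers, the 6 members with no overlap kept small shares in the opposite layer. The stromal mean was 19.4% of the epithelial mean for Hoxc4, 12.7% for Hoxc5, 12.7% for Hoxc6 and 2.70% for Hoxc8. For the 7 keratinocyte markers it was 0.400% to 8.88% with a median of 1.09%. The epithelial mean was 3.75% of the stromal mean for Hoxd8 and 2.08% for Hoxd9. For the 8 skeletal muscle markers it was 0.597% to 3.10%, a range that held Hoxd9 and not Hoxd8. Fibroblast markers were at 47.6% to 86.8% and Schwann cell markers at 2.79% to 8.07% on that scale. Which cells of either layer carried the Hox transcripts was not tested.

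**Figure D4:**
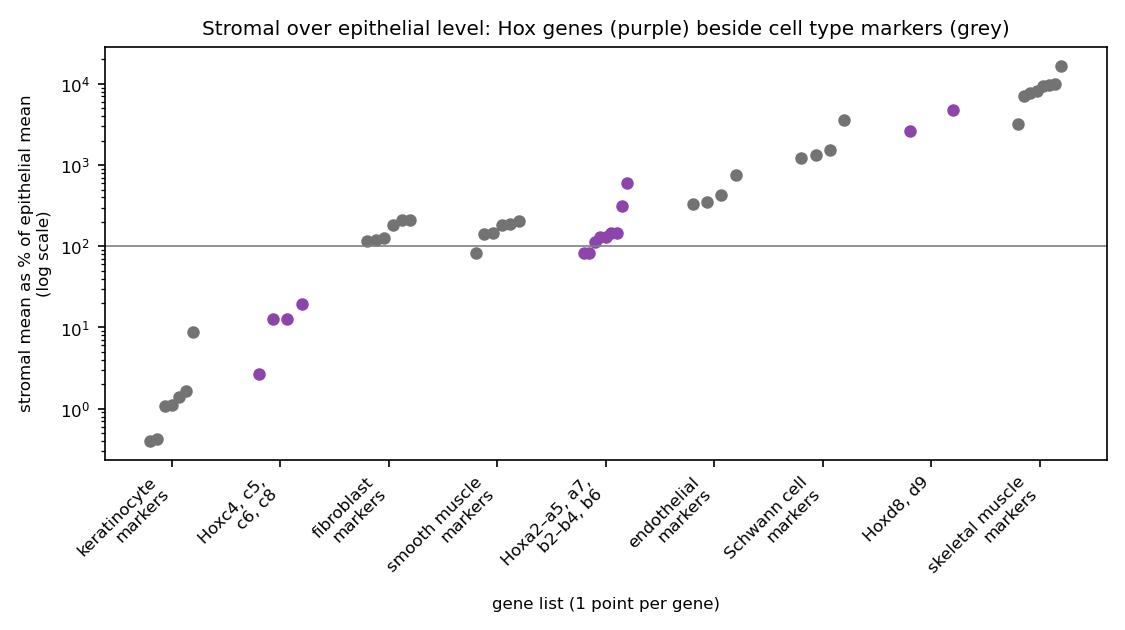
Stromal mean as a percentage of the epithelial mean (log axis) for 15 Hox genes (purple) and 6 marker lists (grey), with 1 point per gene and a line at 100%. The 4 Hoxc genes lie between 2.70% and 19.4%, and Hoxd8 and Hoxd9 lie at 2666% and 4813%.

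Promoter windows, with 250 bases before to 50 after the start, were available and compared for 22 of 39 members. Hoxc5, Hoxc6 and Hoxc8 were not among them. Shown are those of Hoxd8 and Hoxd9, which were high together in stroma, and of Hoxc4 from the epithelial group, all on the plus strand of GRCm38.p6. They lie at chr2:74704365-74704664 (Hoxd8), chr2:74697513-74697812 (Hoxd9) and chr15:103034145-103034444 (Hoxc4). The Hoxc4 gene model begins upstream at chr15:103018934, so its window describes a start inside the gene and not the first annotated start. Capitals mark matches, on either strand, to TATAAA (the TATA box), CCAAT (the CCAAT box), TAATTA (a core bound by many homeodomains) or TTTATGG (a core bound by Cdx and 5′ Hox proteins).
Hoxd8 promoter: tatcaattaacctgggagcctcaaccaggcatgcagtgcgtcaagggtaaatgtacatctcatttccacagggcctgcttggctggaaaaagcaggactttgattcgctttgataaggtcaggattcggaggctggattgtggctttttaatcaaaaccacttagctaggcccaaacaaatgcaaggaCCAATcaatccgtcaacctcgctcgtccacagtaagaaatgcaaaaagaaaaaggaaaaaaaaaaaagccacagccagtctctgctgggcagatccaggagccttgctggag
Hoxd9 promoter: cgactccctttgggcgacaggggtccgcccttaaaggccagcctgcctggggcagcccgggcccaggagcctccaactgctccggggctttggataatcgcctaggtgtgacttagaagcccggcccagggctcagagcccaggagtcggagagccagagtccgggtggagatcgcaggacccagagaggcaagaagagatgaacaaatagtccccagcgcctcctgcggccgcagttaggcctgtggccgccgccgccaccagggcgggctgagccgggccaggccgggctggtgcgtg
Hoxc4 promoter: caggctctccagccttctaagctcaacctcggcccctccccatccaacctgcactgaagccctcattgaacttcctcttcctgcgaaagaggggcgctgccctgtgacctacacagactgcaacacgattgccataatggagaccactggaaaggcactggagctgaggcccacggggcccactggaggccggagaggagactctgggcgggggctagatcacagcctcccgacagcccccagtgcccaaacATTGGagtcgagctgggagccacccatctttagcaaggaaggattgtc
CCAAT was the only one of these motifs found, in Hoxd8 and, on the other strand, in Hoxc4, and 37.4% of all 32851 promoter windows hold it. TATAAA is held by 13.6% of all windows, TAATTA by 5.29% and TTTATGG by 2.75%, and none of the 3 shown holds them. The Hoxd8 window had 6 CpG dinucleotides and the Hoxd9 window 20, where the median was 14.5 over the Hox windows and 7 over all.

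Genes that work with Hox proteins or mark Hox chromatin were counted from lists. Of the 9 TALE cofactors, which bind DNA together with Hox proteins, 8 were tested, 1 was higher in epithelium and 1 in stroma. Of all genes tested, 26.1% were higher in epithelium and 30.1% in stroma. Meis1 was at 19.5 ± 4.51 normalized counts in epithelium and 9.09 ± 2.07 in stroma (log2 fold change 1.10 ± 0.20, adjusted p = 7.45e-05). Pknox2 was at 1.24 ± 0.72 and 14.9 ± 2.60 (-3.46 ± 0.31, adjusted p = 8.96e-09). The other 6 tested did not pass.

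All 16 Polycomb genes, whose products keep silent Hox genes off, were tested, with 5 higher in epithelium, 4 higher in stroma and 7 not called, near the 26.1% and 30.1% of all genes tested. The chromobox genes of the complex that modifies histone H2A went both ways. Cbx2 had 8.61 ± 1.11 normalized counts in epithelium and 1.41 ± 0.49 in stroma (log2 fold change 2.60 ± 0.26, adjusted p = 4.34e-08). Cbx7 differed by -1.35 ± 0.20 and Bmi1, from the same complex, by -1.76 ± 0.23 (adjusted p = 2.01e-06). Of 8 Trithorax and histone demethylase genes, which act against Polycomb, 1 was higher in epithelium and 2 in stroma. The 10 noncoding genes of the clusters had 1 member tested, Hoxaas2, and it was not called. Haglr, a noncoding gene of the Hoxd cluster, had 118 counts in stroma, at 0 to 3.44 normalized counts per sample, and 7 in epithelium, and it did not pass the filter. Of 9 genes flanking the clusters, 6 were tested, 2 were higher in epithelium and 1 in stroma, Lnpk next to Hoxd at -1.86 ± 0.20. Of 6 regulators upstream of Hox genes, 3 were tested, with 1 higher in epithelium and 2 in stroma. The counts of these short lists stand beside the same 26.1% and 30.1% and are no result about the lists.

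Aged and young mice were compared next within each layer. In epithelium 11 members passed the filter and none passed the adjusted threshold in edgeR's quasi-likelihood test, where 0.0132% of the 15107 genes tested did. At an unadjusted p under 0.05, 5 of the 11 were higher in aged epithelium, against 1.57% of all genes, and 0 were lower, against 1.79%. DESeq2, which gave no adjusted p for Hoxa5 and Hoxa7, called 1 member, Hoxc8 (log2 fold change 1.11, adjusted p = 0.000950). The share of all genes that DESeq2 called is not given here, so this count is no result about the members. Neighbours within a cluster are not independent of each other. The median log2 fold change was 0.33 over the 11 members and -0.00288 over all genes tested.

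Hoxc8 had the smallest p of these members. Aged epithelium had 17.1 normalized counts in O1, 23.4 in O2, 21.7 in O3, 11.7 in OF5 and 8.96 in OM8. Young epithelium had 9.53 in Y1, 11.5 in Y3, 1.25 in YF5 and 5.19 in YM4. The ages overlapped over all mice, since OM8 fell below Y1 and Y3, but not within either set of mice. The share of all genes that separate by age within these small sets is not given here. Among mice with both layers the means were 20.7 ± 3.23 (n = 3) and 10.5 ± 1.43 (n = 2), a ratio of 1.97, and among the other 4 mice 10.3 ± 1.95 and 3.22 ± 2.79 (n = 2 each), a ratio of 3.21. With the 2 sets of mice as a term in the fit, the log2 fold change was 1.10 ± 0.22 (unadjusted p = 8.45e-05, adjusted p = 0.155). Without this term, edgeR's quasi-likelihood test gave Hoxc8 an unadjusted p of 0.0104 and an adjusted p of 0.9998.

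Hoxa5 had 1.48, 1.54, 2.15, 0.689 and 1.18 normalized counts in aged O1, O2, O3, OF5 and OM8. Young Y1, Y3, YF5 and YM4 had 0.673, 0.393, 0.417 and 0.346, all below every aged sample. The log2 fold change was 1.63 ± 0.44 (adjusted p = 0.743). Hoxa7 (chr6:52214491-52221854), a trunk gene of the Hoxa cluster, was at 0.843, 1.61, 1.78, 0.689 and 1.89 in the same aged mice and at 0.602, 0.262, 0 and 0 in the young, with a log2 fold change of 1.95 ± 0.55 (adjusted p = 0.815). Lack of overlap with aged higher, as in these 2 of 11 members, was seen in 0.887% of all genes tested, and with aged lower, as in none of them, in 0.404%. The lowest aged value of both genes, in OF5, rested on 2 counts and lay under that sample's floor of 1.03 normalized counts. In YF5 and YM4, Hoxa5 rested on 1 count each and Hoxa7 on none, under floors of 1.25 and 1.04, so in these samples the lack of overlap is within counting error. Exons of the antisense gene Hoxaas3 cover 20.4% of Hoxa7, whose counts are uncertain for want of the strand setting. Without these 4 shallow samples the means were 1.73 ± 0.37 and 0.533 ± 0.198 for Hoxa5, and 1.41 ± 0.50 and 0.432 ± 0.241 for Hoxa7.

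Along the Hoxc cluster the age difference in epithelium decreased in size from Hoxc8 to Hoxc4, an order that was not tested. It was 0.76 ± 0.25 for Hoxc6 (unadjusted p = 0.00707), 0.45 ± 0.17 for Hoxc5 (unadjusted p = 0.0141) and 0.15 ± 0.16 for Hoxc4 (unadjusted p = 0.362), all on the log2 scale. Hoxc4 averaged 11.9 ± 1.49 normalized counts in aged (n = 5) and 11.2 ± 1.62 in young (n = 4) epithelium. The skeletal muscle, fibroblast and keratinocyte marker lists had 0 called genes by age in epithelium, with medians of -1.33, -0.33 and -0.18 (log2), while 3 of their 21 genes had an unadjusted p under 0.05 and DESeq2 called 1. None of the TALE, Polycomb, Trithorax, flanking, noncoding or upstream genes was called by age in either layer by edgeR or DESeq2, with 4 of 40 tested at an unadjusted p under 0.05 in epithelium and 0 of 47 in stroma. At that threshold in edgeR's test, 1.57% of all genes tested were higher and 1.79% lower in aged epithelium. In stroma 3.64% passed in either direction.

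**Figure D5:**
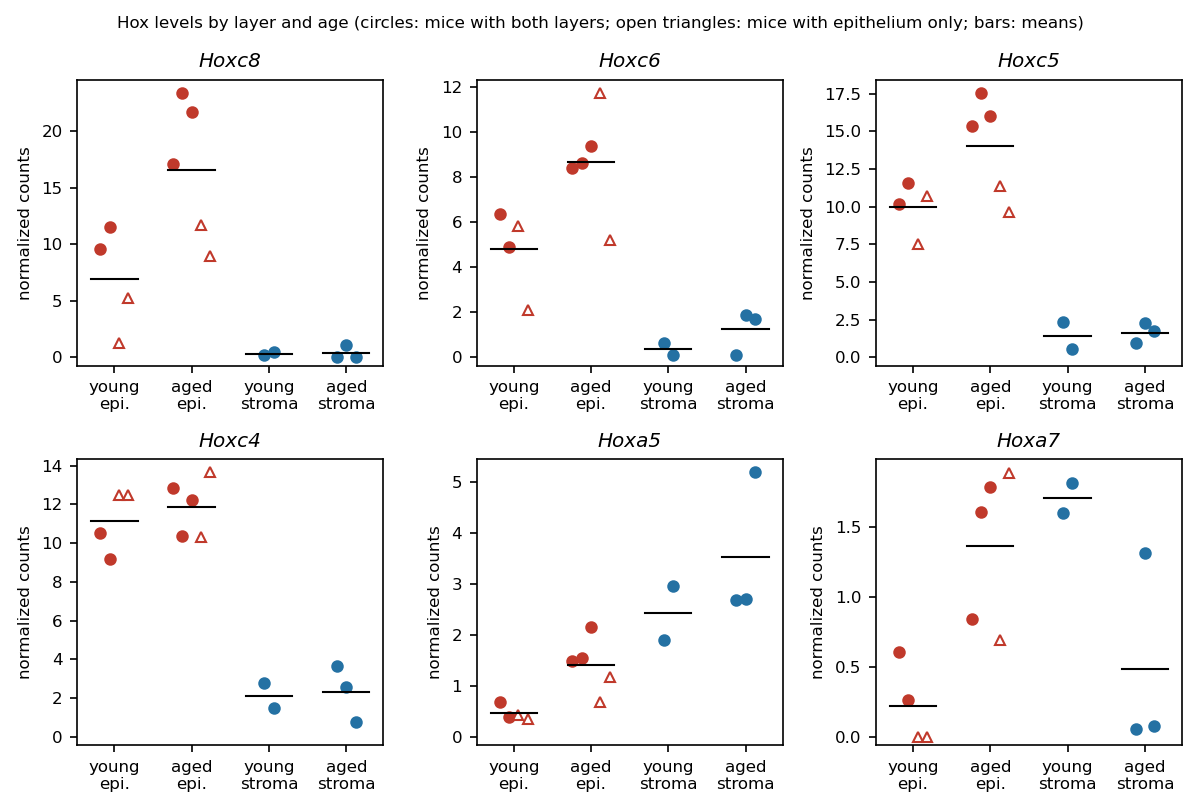
Normalized counts of 6 Hox genes by layer and age, with 1 point per mouse (circles for the 5 mice with both layers, open triangles for the 4 with epithelium only) and bars at the group means. For Hoxa5 and Hoxa7 every aged epithelial point lies above every young one. For Hoxc8 this holds only within circles and within triangles, small sets for which the share of all genes is not given.

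In stroma, 19 members passed the filter in 3 aged and 2 young samples, and none was called by edgeR's quasi-likelihood test, as 0% of the 21323 genes tested were. No member reached an unadjusted p under 0.05, against 3.64% of all genes, and DESeq2 called none. Lack of overlap with aged lower was seen in 3 of the 19, among them Hoxa7 and Hoxd8, against 14% of all genes, and with aged higher in none, against 6.57%. The stromal libraries of the 2 ages also differed in low-level background. Of the olfactory receptor genes, 62.0% to 83.7% had a count in young stroma and 9.86% to 28.9% in aged stroma. Genes with a count numbered 34224 to 41308 and 20115 to 25497. Age and this background cannot be told apart in these samples. Hoxd8 differed between ages by -0.25 ± 0.33 and Hoxd9 by 0.23 ± 0.76. In the same comparison the median log2 fold change was 2.29 for keratinocyte and 1.75 for smooth muscle markers, -0.03 for skeletal muscle and 0.18 for fibroblast markers. None of these markers was called by edgeR, and of the 21 keratinocyte, skeletal muscle and fibroblast genes 6 had an unadjusted p under 0.05 and DESeq2 called 0. Their part in the stromal Hox values by age was not tested.

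Whether the age difference itself differed between layers was tested in the 10 samples of mice with both layers. The stromal samples among them are the same, with the same difference in background between ages. None of the 19 members tested was called, as 0% of the 22771 genes tested were, and DESeq2 called none of the members. At an unadjusted p under 0.05 there were 0 members, against 4.3% of all genes. Hoxa7 had a log2 difference of differences of 3.49 ± 1.73 (unadjusted p = 0.0682). For Hoxc8 the value was 0.69 ± 1.47, so a difference between its age effects in the layers was not detectable in these samples.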

How the data were processed

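For each sample the authors deposited raw counts of reads per gene symbol, as whole numbers without normalization. Per the study's methods, reads were aligned with Rsubread to GRCm38.p6 from GENCODE and summarized with featureCounts, and the submitters' processing notes name bcl2fastq and GRCm38. Versions, annotation release, strand and multi-mapping settings are not given in the sources used here. Gene models were taken from GENCODE M21, where 53292 of 55291 symbols were found.

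The model was that of edgeR 4.0.16 (R 4.3.3): filterByExpr with a minimum count of 10, TMM, robust glmQLFit and glmQLFTest, with Benjamini-Hochberg adjustment over all genes tested and a threshold of 0.05. Layers were compared in 14 samples without a covariate. Age was compared in 9 epithelial samples with a term for mice named with or without a sex letter, in 5 stromal samples, and as an interaction in 10. Layers of 1 mouse are paired through the labels, and their deviations from the group means correlated at 0.0422 to 0.141. Replicates are different mice, and no 2 libraries of a group agreed within sampling noise. The count floors cover counting error only. The scripts were tested on simulated data with 200 changed genes per comparison. They recovered 136 between layers, 163 by age in epithelium, 56 by age in stroma and 32 for the interaction. Of the genes changed by only 1 on the log2 scale, they recovered 23 of 68, 44 of 76, 1 of 58 and 0 of 69. A lack of calls between layers, by age in either layer or for the interaction therefore does not show a lack of change.

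All members could be named, with full statistics for those called or with the smallest p, and up to 3 called genes per direction from the other lists. Hoxa5, Hoxa7, Hoxc4, Hoxc5 and Hoxc6 by age were given values after these were seen. The values of 1 member and of 1 Polycomb gene are not reported here, and that member is not drawn. The members, lists and tests were chosen with earlier results of these data known. Alternatives covered DESeq2 1.42.0, other normalizations and filters, a replicate block, the sex-letter term, a minimum fold change, leaving out each mouse, and 2 other exon lengths.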

Additional observations from a re-analysis of the deposited data

How the results depend on the processing

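The 4 members higher in epithelium and 4 higher in stroma kept these counts under DESeq2, RLE and upper quartile normalization, a term for mice with a sex letter in their name, and the 10 samples of mice with both layers. Without a filter on low counts 7 members were higher in stroma (Hoxa9, Hoxc10, Hoxd3 and Hoxd12 joined, and Hoxb6 was lost at an adjusted p of 0.0573). With 10 counts required in every sample, 2 members, Hoxc4 and Hoxc5, could be tested, leaving 2 higher in epithelium and 0 in stroma. Against a fold change of 2, Hoxa5 was lost (adjusted p = 0.119). Leaving out each mouse in turn gave 4 members higher in epithelium and 4 to 5 higher in stroma, with Hoxb5 joining without O3. With the mouse as a replicate block, the paired fit kept all 8 calls, 4 in each direction, and gave 5.96 for Hoxc8 and -5.42 for Hoxd8 on the log2 scale. The blocked interaction changed no call.

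By age in epithelium, the count of 0 became 1 with DESeq2 and 1 without a filter, in both cases Hoxc8, whose adjusted p ran from 0.000627 to 0.9998 over 15 alternatives while its log2 fold change ran from 0.95 to 1.27. The shares of all genes called in these fits are not given here. In the other age comparisons, no alternative gave a call. With the exon length of the longest coding transcript, epithelial levels per kb were 6.56 for Hoxc8, 5.45 for Hoxc4, 4.38 for Hoxc6, 4.18 for Hoxc5 and 1.002 for Hoxa3, which reorders the members. Depth limits the 4 epithelium-only samples most, and age in stroma rests on 3 and 2 samples.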
